A study of Mus musculus with 13 samples.

Results

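The 4 Hox gene clusters of the mouse, HoxA, HoxB, HoxC and HoxD, were followed in reduced representation bisulfite sequencing (RRBS), which reads the methylation of CpGs in CpG-rich fragments cut out by a restriction enzyme. The clusters were taken as 4 windows of the mm9 build: chr6:52080000-52250000 for HoxA, chr11:96030000-96250000 for HoxB, chr15:102740000-102880000 for HoxC and chr2:74480000-74620000 for HoxD. Reads were summed in tiles of 1 kb, and the level of a tile is the percent of its CpG reads that were methylated. A tile was tested where each of the 13 libraries had at least 20 reads and 3 CpGs in it. This left 119 Hox tiles (33 in HoxA, 32 in HoxB, 28 in HoxC and 26 in HoxD) of 393 with any read, among 40417 tested tiles of chromosomes 1 to 19 and X. In the windows 6689 CpGs were read in any library, 1077 in each of the 13, and 55 with at least 10 reads in each.

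The libraries were 2 of female induced pluripotent stem cells (iPSCs) labelled XaXa, 4 of female iPSCs labelled XO, 3 of male iPSCs, 2 of male mouse embryonic fibroblasts (MEFs, the connective tissue cells from which iPSCs are commonly made), and 1 each of male cells labelled positive and negative for SSEA1, a cell surface marker that mouse cells gain on the way to pluripotency. The series' design text calls the last of these reprogramming intermediates. The labels give no strain, age, allele, reprogramming factors or time point. They do not say which libraries came from separate lines, clones or animals, so the p-values rest on a spread between libraries that may be only technical. Feeder cells were removed from the iPSCs, per the labels. RRBS gives no expression, so the labelled cell types were not checked against marker genes. Total CpG reads ran from 4784488 (XO 9) to 143148634 (XaXa 8).

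The depth of the X chromosome, relative to the male iPSC libraries, went against some labels. Depth was counted here with at most 100 reads per CpG, and was not computed without this cap. It was 1.44 and 1.38 in XaXa 7 and 8, and 1.32, 1.19, 1.10 and 1.37 in the libraries labelled XO 3, 5, 6 and 9. It was 0.895 in MEF 4 and 1.27 in the library labelled male MEF 5. XO and MEF are used below as the names on the labels, and the main results against XO are also given with XO 6, the nearest of the 4 to the male iPSCs in X depth, as the only XO library, and those against MEFs without MEF 5. Of the chromosomes that carry the clusters, 2, 6 and 15 lay between 0.966 and 1.04 in every library, and chromosome 11 reached 1.13 in XO 6.

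Hox genes encode homeodomain transcription factors that give cells their position along the body axis. In each cluster the genes stand in the order in which they act, from group 1 genes at the anterior, early end to group 13 genes at the posterior, late end. The clusters are rich in CpG islands, are held silent by Polycomb complexes in pluripotent cells and are mostly free of DNA methylation there, while fibroblasts keep part of the Hox pattern of the body site they came from.

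No annotation of mm9 was used, so gene starts were found by matching RefSeq promoter sequences (GRCm38.p6) to the CpG positions and 5-base contexts of the deposited tables, with at least 4 matched CpGs and 0 mismatches. Of 38 member genes 22 had a promoter sequence and 17 were matched at a single place. Distances between matched starts agreed between the builds in HoxB, HoxC and HoxD and within 5 bases in HoxA. Exons, introns and UTRs were not assigned. The 250 bases before the start are shown for 4 genes: Hoxd4 had the most methylated start, Hoxd12 an intermediate one, Hoxb1 one that differed between iPSC groups and Hoxd1 an unmethylated one. The sequences are RefSeq's, 5′ to 3′ on the plus strand, on which these genes lie, and capitals mark CpGs read in any library.
Hoxd4: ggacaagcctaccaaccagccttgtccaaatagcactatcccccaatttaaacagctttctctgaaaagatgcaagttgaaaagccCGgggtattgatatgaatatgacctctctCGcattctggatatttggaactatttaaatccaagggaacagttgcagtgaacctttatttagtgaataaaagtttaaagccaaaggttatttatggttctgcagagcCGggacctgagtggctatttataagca
Hoxd12: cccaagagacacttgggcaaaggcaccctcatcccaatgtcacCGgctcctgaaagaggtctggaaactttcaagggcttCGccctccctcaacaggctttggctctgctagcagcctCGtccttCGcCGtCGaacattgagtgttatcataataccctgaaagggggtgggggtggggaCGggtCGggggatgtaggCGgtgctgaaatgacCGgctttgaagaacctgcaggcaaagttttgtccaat
Hoxb1: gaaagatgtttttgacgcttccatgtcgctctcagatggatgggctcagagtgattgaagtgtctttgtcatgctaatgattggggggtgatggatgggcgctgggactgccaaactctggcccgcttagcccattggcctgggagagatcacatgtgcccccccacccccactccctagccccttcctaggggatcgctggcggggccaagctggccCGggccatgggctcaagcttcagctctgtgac
Hoxd1: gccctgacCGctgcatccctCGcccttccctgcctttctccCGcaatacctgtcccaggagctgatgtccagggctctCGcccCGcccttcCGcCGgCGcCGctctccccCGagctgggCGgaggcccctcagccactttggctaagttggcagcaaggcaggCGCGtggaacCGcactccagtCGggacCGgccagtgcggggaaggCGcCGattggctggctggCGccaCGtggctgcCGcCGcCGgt
In mm9 these stretches lie at chr2:74559785-74560034, chr2:74512820-74513069, chr11:96226822-96227071 and chr2:74600787-74601036. Of their CpGs, 3 of 3 were read before Hoxd4, 10 of 10 before Hoxd12, 1 of 7 before Hoxb1 and 23 of 24 before Hoxd1. The motif CCGG, which reads the same on both strands and cannot overlap itself, stood in the 250 bases of 18 of 24 member promoter entries (75%) and of 47.1% of all 32851 promoter entries.

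The Hox tiles were little methylated in every library. The mean level over the 119 tiles in XaXa was 10.04% ± 2.16 (SD, n = 2), against 14.8% ± 5.72 (SD, n = 4) for XO, 8.27% ± 0.747 (SD, n = 3) for male iPSCs and 12.8% ± 0.774 (SD, n = 2) for MEFs. It was 11.5% and 12.5% in the SSEA1 positive and negative libraries. Over all tested tiles the group means were 27.2% in XaXa, 44.8% in XO, 43.9% in male iPSCs and 52.8% in MEFs. XaXa was thus the lowest group over all tested tiles, whereas male iPSCs were the lowest in the Hox tiles. The ratio of the Hox level to the level of all tested tiles was 0.168 to 0.203 in male iPSCs, 0.236 and 0.249 in MEFs, and 0.351 and 0.383 in XaXa. In XO 3, 5, 6 and 9 it was 0.469, 0.365, 0.222 and 0.253.

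**Figure D1:**
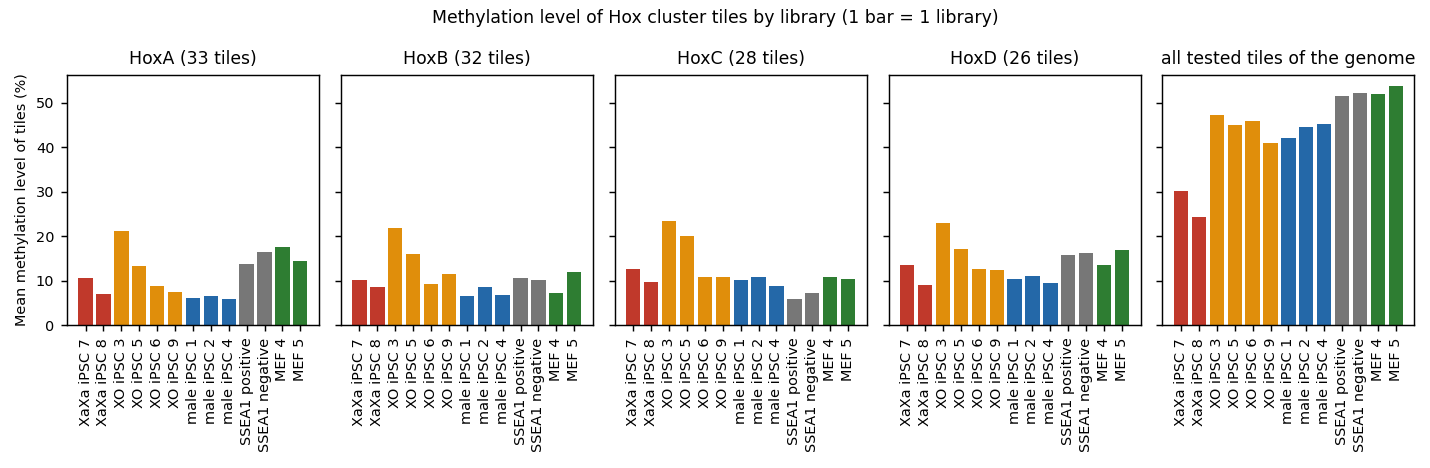
Mean methylation level in percent (vertical axis) of the tested tiles of each Hox cluster and of all tested tiles, 1 bar per library, coloured by group (both SSEA1 libraries in grey). XO 3 has the highest bar in each of the 4 Hox panels, the 3 male iPSC bars are the lowest in HoxA, and the XaXa bars are the lowest over all tested tiles.

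The 4 XO libraries were unlike each other in the clusters. XO 3, 5, 6 and 9 had mean Hox levels of 22.2%, 16.4%, 10.2% and 10.4%, while over all tested tiles they had 47.3%, 44.9%, 46.0% and 41.0%. XO 3 was the highest of the 13 libraries in 55 Hox tiles (46.2%), against 9.55% of all tested tiles. What sets XO 3 and XO 5 apart was not tested.

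Levels differed more between tiles than between groups. Tile means over the 13 libraries ran from 0.227% to 62.2%. In 32 tiles (26.9%) every library was under 10%, as in 21.5% of all tested tiles, and in 20 (16.8%) at least 1 library was above 50%, as in 66.0% of all tested tiles. The level went with the number of CpGs read in a tile. The means of the 4 replicated groups were 2.80% to 5.12% in the 35 Hox tiles with 40 or more CpGs, 7.05% to 15.3% in the 53 with 20 to 39, 14.7% to 23.6% in the 24 with 10 to 19, and 20.5% to 33.1% in the 7 with fewer. Among all tested tiles, those with 40 or more CpGs had 5.78% in XaXa, 10.3% in XO, 9.19% in male iPSCs and 17.7% in MEFs, and those with fewer than 10 had 41.2% to 71.7%. The Hox tiles were below the tiles of like CpG number in each replicated group, as a description.

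Tiles are numbered below along each cluster from the group 13 side to the group 1 side, counting tested tiles only. Methylated tiles were scattered along the clusters, though mean MEF levels rose towards the group 1 side in HoxA, HoxB and HoxC. Spearman's rho between level and distance from the group 13 side, over 26 to 33 tiles that share their libraries, lay between -0.0792 (HoxB, male iPSCs) and 0.389 (HoxB, MEFs) in the 4 replicated groups. With each cluster cut into 3 stretches of equal length, HoxA in MEFs had 10.2% ± 0.243 (SD, n = 2) on the group 13 side, 18.96% ± 2.55 in the middle and 21.0% ± 4.72 on the group 1 side. Male iPSCs had 4.75% ± 0.355 (SD, n = 3), 6.35% ± 1.25 and 8.41% ± 1.43 there. In HoxD the middle stretch was the highest of the 3 in each replicated group, at 15.97% in XaXa, 25.2% in XO, 18.4% in male iPSCs and 23.8% in MEFs. In HoxB the male iPSC minus MEF difference was lower towards the group 1 side (rho = -0.579 over 32 tiles).

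**Figure D2:**
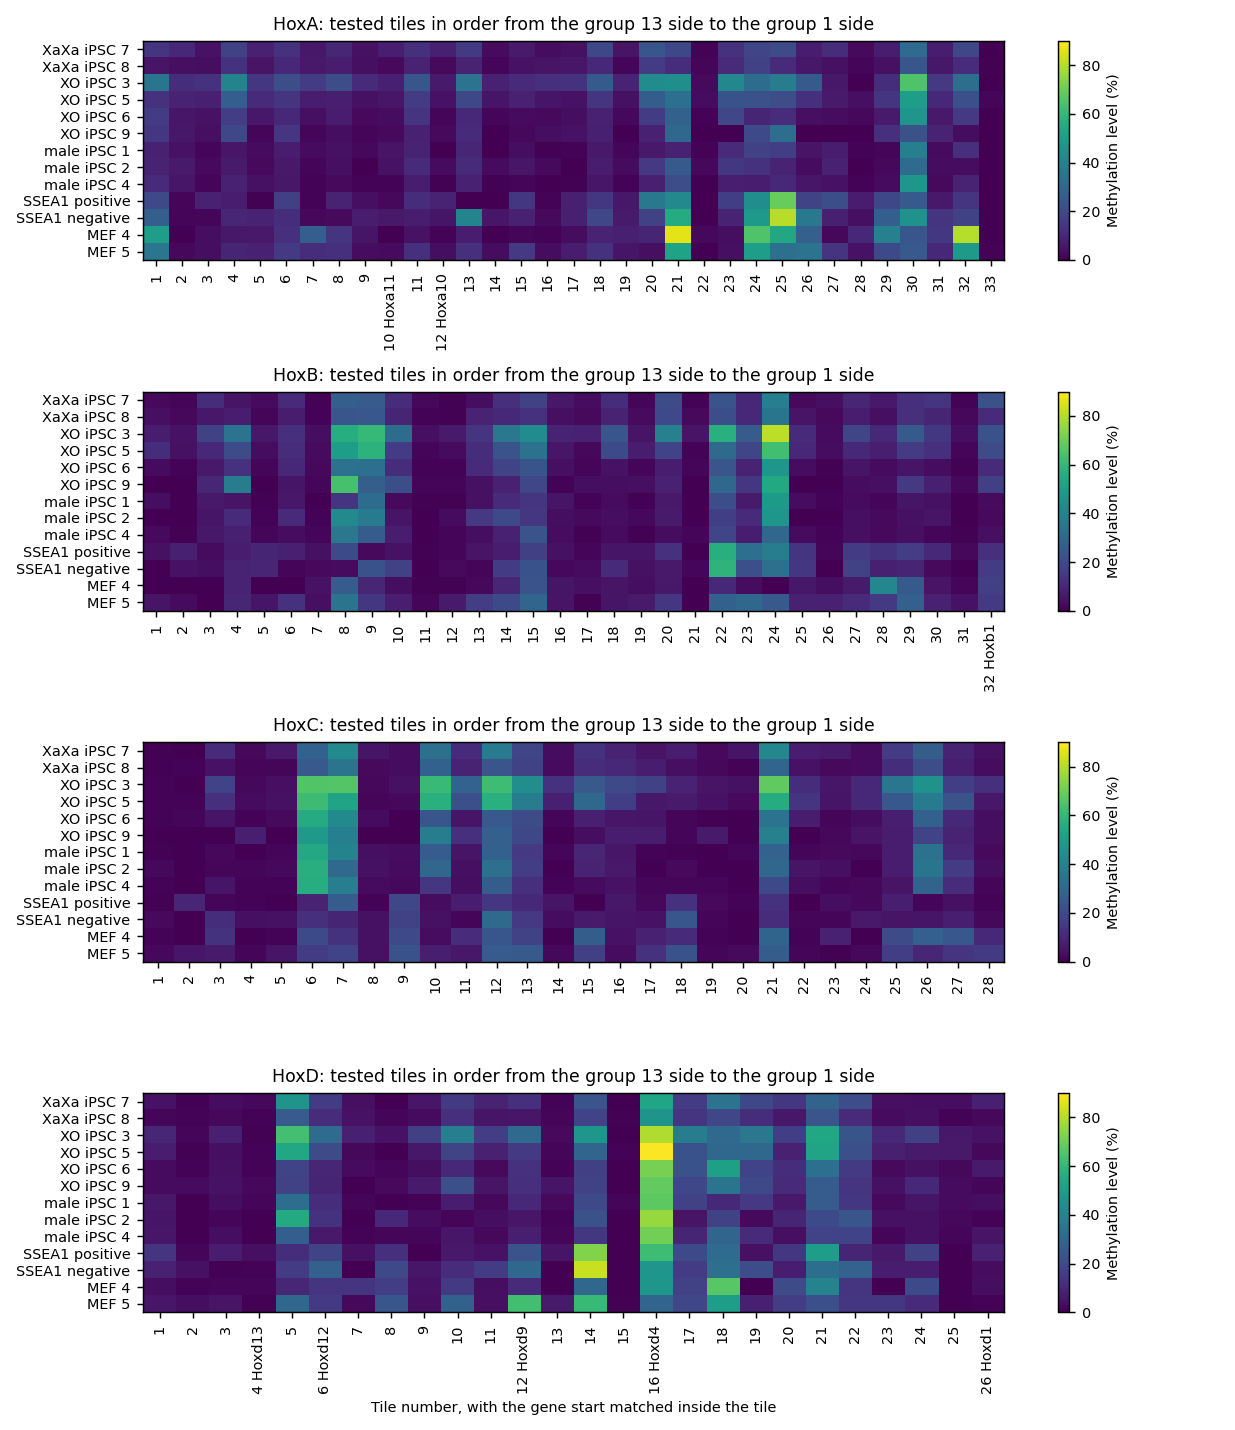
Methylation level in percent (colour) of each tested tile (columns, in order from the group 13 side to the group 1 side, with the gene whose matched start lies in the tile) in each library (rows), for the 4 clusters. Methylated columns such as HoxD tile 16, which holds the Hoxd4 start, and HoxB tile 24 stand between nearly unmethylated ones, and HoxA tiles 24 and 32 are brightest in the MEF rows.

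The first comparison asks how 2 active X chromosomes, as labelled, go with methylation of the clusters. HoxC tile 6 and the Hoxd4 start were lower in XaXa than in XO, and most other Hox tiles differed little in points. The Hox mean differed by -4.75 points (XaXa 10.04%, XO 14.8%), and the libraries overlapped (exact permutation p = 0.333, two-sided, 0.417 adjusted over 5 comparisons, smallest possible 0.0667). With XO 6, which also had the lowest Hox mean of the 4, as the only XO library it was -0.143 points. The median difference per tile was -2.53 points in the Hox tiles and -20.0 points over all tested tiles. The mean level in XO was 14.8% in the Hox tiles and 44.8% over all tested tiles, so the Hox tiles had less room to fall in points. In tiles with 20 to 39 CpGs, XaXa and XO had 9.88% and 14.7% in the clusters, and 19.9% and 33.9% over all tested tiles. Whether the fall differs in proportion was not tested. Both XaXa libraries lay below all XO libraries in 17 Hox tiles (14.3%), against 58.4% of all tested tiles, and above them in 0, against 1.07%.

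Tiles were tested with a quasi-binomial model of the reads, and called at a Benjamini-Hochberg adjusted p under 0.05 over all 40417 tiles and a difference of at least 10 points. Lower in XaXa than in XO were 15 Hox tiles (12.6%), against 61.3% of all tested tiles. In XO 3, 5, 6 and 9, 40, 56, 79 and 80 of the 119 Hox tiles were under 10%, and a tile with an XO mean under 10% cannot be 10 points lower in XaXa. With reads down-weighted so that the very deep XaXa 8 and XO 6 libraries do not dominate (effective reads), 8 were lower, all among the 15, against 54.5% of all tiles, and limma called 3, against 50%. Higher in XaXa were 0 by each of these methods (1 at an unadjusted p under 0.05), against 0.0198% of all tested tiles in the quasi-binomial model and 0.0124% by both effective reads and limma. The lower count was 2 without XaXa 8 (against 42.6% of all tiles), 26 without XO 6 (against 60.5%) and 5 with XO 6 as the only XO library (against 62.1%).

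HoxC tile 6 (chr15:102776007-102776710, first and last CpG, 13 CpGs, 56 to 1805 reads per library) lies 88116 bases to the group 13 side of the matched Hoxc4 start. It was methylated at 28.0% and 25.3% in XaXa 7 and 8, at 65.4%, 61.6%, 55.4% and 48.2% in XO 3, 5, 6 and 9, at 54.4%, 56.7% and 56.0% in male iPSC 1, 2 and 4, and at 20.2% and 15.9% in MEF 4 and 5. Both XaXa libraries lay below the 7 other iPSC libraries and above both MEF libraries. XaXa minus XO was -31.0 points (adjusted p = 8.39e-07, quasi-binomial, 0.00465 by effective reads and 0.00591 by limma), and the call held with each of the 11 libraries left out in turn. With XO 6 as the only XO library the difference was -28.8 points (adjusted p = 5.29e-06, quasi-binomial).

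HoxD tile 16 (chr2:74560008-74560533, 7 CpGs, 38 to 1255 reads) holds the start of Hoxd4, a group 4 gene of the hindbrain and neck whose promoter is shown above. XaXa 7 and 8 had 53.1% and 46.6%, XO 3, 5, 6 and 9 had 79.2%, 89.5%, 71.4% and 68.4%, male iPSC 1, 2 and 4 had 67.4%, 75.9% and 70.9%, and MEF 4 and 5 had 47.5% and 29.2%. The XaXa libraries again lay below every other iPSC library. XaXa minus XO was -27.3 points (adjusted p = 4.92e-05, quasi-binomial, 0.00655 by effective reads and 0.0188 by limma), and this call too held with each of the 11 libraries left out. With XO 6 as the only XO library it was -21.5 points (adjusted p = 0.000138, quasi-binomial).

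The 6 other tiles called by both the quasi-binomial model and effective reads were HoxA tiles 21 and 30 and HoxB tiles 4, 8, 9 and 24, with differences of -18.5, -18.5, -20.5, -25.1, -19.6 and -24.7 points. Without XaXa 8, which leaves 1 XaXa library, none of the 6 was called, with differences in the same order of -14.6, -14.8, -21.9, -23.5, -18.8 and -22.9 points. With XO 6 as the only XO library the 4 HoxB tiles were not called, at -7.02, -7.73, -7.63 and -10.6 points, and both HoxA tiles were. In HoxB tile 9 (chr11:96130440-96130979), 12240 bases to the group 13 side of the matched Hoxb8 start, XO 3 and 5 had 60.4% and 58.2%, XO 6 and 9 had 32.7% and 27.4%, and XaXa 7 and 8 had 25.9% and 24.3%, and the difference was -4.99 points without XO 3 and 5, a pair left out after their high Hox levels were seen. Without that pair it was -6.83 points in HoxA tile 30, -14.2 in HoxB tile 24 and -19.6 in HoxB tile 4 (adjusted p = 0.08, quasi-binomial), and the calls of these 4 tiles ended. HoxB tile 24, with 4 CpGs, ran from 0% and 25.2% in MEF 4 and 5 to 47.3% to 81.0% in XO.

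The second comparison sets XaXa against male iPSCs, and here most Hox tiles went the other way from most tiles of the genome. The Hox mean was 1.77 points higher in XaXa (11.6% and 8.52% against 8.15%, 9.07% and 7.59%), with overlapping libraries (exact permutation p = 0.3, two-sided, smallest possible 0.1). The difference was positive in 93 of 119 Hox tiles (78.2%) and in 17.6% of all tested tiles, with a median of 1.95 against -17.8 points. Both XaXa libraries lay above all 3 male iPSC libraries in 45 Hox tiles (37.8%), against 3.72% of all tested tiles, and below them in 10 (8.40%), against 59.9%. By cluster XaXa minus male iPSC was 2.68 points in HoxA and 2.04 in HoxB, without overlap of the libraries, and 1.24 in HoxC and 0.875 in HoxD, with overlap (exact permutation p adjusted over 20 tests = 0.327, 0.444, 0.714 and 0.8). Over the 4 clusters it was 0.249 points without XaXa 7 and 3.30 without XaXa 8.

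The quasi-binomial model called 3 Hox tiles lower in XaXa (2.52%), against 56.6% of all tested tiles, and 2 higher (1.68%), against 0.104%. In male iPSC 1, 2 and 4, 91, 86 and 96 of the 119 Hox tiles were under 10%, a level that leaves no room for a fall of 10 points. By effective reads 2 were lower and 1 higher, all among these, against 47.7% and 0.0643% of all tiles. HoxC tile 6 differed by -29.1 points (adjusted p = 2e-06, quasi-binomial, 0.00886 by effective reads). HoxD tile 16 at Hoxd4 differed by -21.5 points (adjusted p = 0.000823, quasi-binomial, 0.0387 by effective reads, 0.0964 by limma, and 0.113 without XaXa 8). HoxA tile 30 differed by -11.5 points (adjusted p = 0.00298, quasi-binomial, but 0.238 by effective reads). The same 3 tiles were called against XO, a comparison that shares the XaXa libraries.

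Both tiles called higher in XaXa lie in HoxB. HoxB tile 32 (chr11:96227040-96227901, 23 CpGs, 35 to 1487 reads) holds the start of Hoxb1, a group 1 gene of the hindbrain. XaXa 7 and 8 had 22.4% and 10.8% there, and male iPSC 1, 2 and 4 had 2.74%, 2.33% and 3.86%. XO 3, 5, 6 and 9 had 22.6%, 21.0%, 10.6% and 17.1%, and MEF 4 and 5 had 16.9% and 15.2%. The 3 male iPSC libraries were the lowest of the 13. XaXa minus male iPSC was 13.6 points (adjusted p = 0.0133, quasi-binomial, 0.0293 by effective reads), and the call ended without XaXa 7 (7.85 points) or male iPSC 4. At the only CpG read in the printed Hoxb1 stretch, 32 bases before the start, pooled reads were methylated at 20.5% of 220 in XaXa, 21.3% of 207 in XO and 5.26% of 76 in male iPSCs.

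In HoxB tile 20 (chr11:96154254-96154982), 11035 bases to the group 1 side of the matched Hoxb8 start, XaXa 7 and 8 had 20.9% and 19.8% and male iPSC 1, 2 and 4 had 6.12%, 6.48% and 2.82%. XaXa minus male iPSC was 15.2 points (adjusted p = 0.00416, quasi-binomial, but 0.0509 by effective reads), and the call ended without XaXa 8 or male iPSC 4. Where only CpGs read 10 times or more by every library were kept, the difference was 9.68 points, under the minimum of 10. XO 3, 5, 6 and 9 had 39.1%, 18.1%, 7.26% and 8.42%, so the XO libraries spanned both groups.

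**Figure D3:**
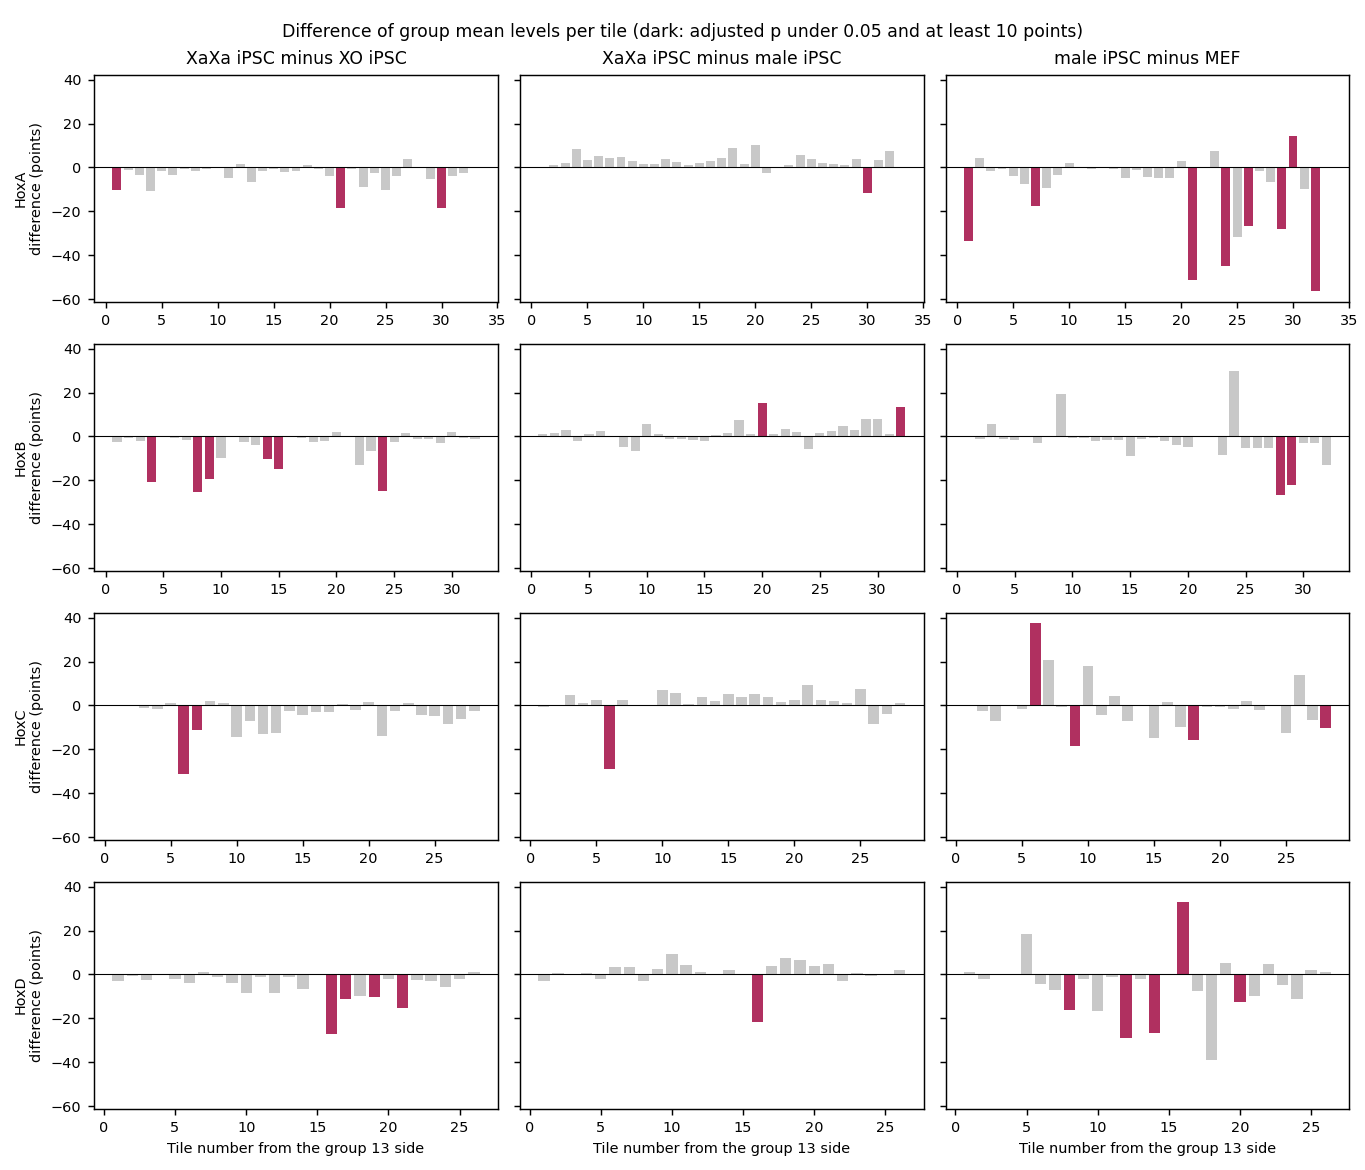
Difference of group mean levels in percentage points (vertical axis) of each tested tile, numbered from the group 13 side (horizontal axis), for the 4 clusters (rows) and 3 comparisons (columns), with called tiles dark. The dark bars of XaXa minus XO all point down, those of XaXa minus male iPSC point down in 3 tiles and up in 2 of HoxB, and the longest bar of male iPSC minus MEF is HoxA tile 32.

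The third comparison, XO against male iPSCs, gave no called Hox tile but a shift in one direction. The quasi-binomial model called 0 Hox tiles in either direction, as did effective reads and limma, against 0.346% of all tested tiles higher and 0.047% lower in XO in the quasi-binomial model, and 0% in each direction by effective reads and by limma. At an unadjusted p under 0.05, 35 Hox tiles were higher (29.4%) and 0 lower, against 9.59% and 2.90% of all tested tiles. Without XO 6, the deepest XO library, 15 Hox tiles were called higher (12.6%), against 0.435% of all tested tiles, and with XO 6 as the only XO library 0, against 0.851%. The difference was positive in 110 of 119 Hox tiles (92.4%), against 56.2% of all tested tiles, with a median of 5.13 against 0.246 points. All XO libraries lay above all male iPSC libraries in 32 Hox tiles (26.9%), against 4.52% of all tested tiles, and below them in 0, against 2.37%. The Hox mean was 6.52 points higher in XO without overlap (exact permutation p = 0.114, two-sided, 0.286 adjusted, smallest possible 0.0286), and 1.92 points higher with XO 6 as the only XO library.

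The Hox tiles with the 3 smallest p in this comparison were HoxD tile 17 (15.03 points), HoxA tile 4 (19.1 points) and HoxA tile 11 (6.71 points), with adjusted p of 0.0974, 0.107 and 0.122 (quasi-binomial). HoxA tile 4 (chr6:52204030-52204549) lies 6325 bases to the group 1 side of the matched start of Hoxa13, a gene of the distal limb and genital tract. XO 3, 5, 6 and 9 had 40.8%, 26.8%, 16.4% and 19.5% there, XaXa 7 and 8 had 17.5% and 13.1%, male iPSC 1, 2 and 4 had 5.45%, 6.67% and 8.34%, and MEF 4 and 5 had 5.88% and 9.15%. The 6 female iPSC libraries were the 6 highest of the 13, and the difference was 9.57 points with XO 6 as the only XO library.

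The fourth comparison, male iPSCs against MEFs, asks what differs between fibroblasts and reprogrammed cells of the same labelled sex. The largest differences were in HoxA tiles 32, 21 and 24, lower in male iPSCs, while tiles called lower made up a smaller share of the Hox tiles than of all tested tiles. In MEF 4 and 5, 73 and 62 of the 119 Hox tiles were under 10%, a level that leaves no room for a fall of 10 points. HoxA tiles 32 and 21 had too few CpGs or reads to be tested on CpGs read in each library. Whether the same CpGs lie behind their MEF and iPSC levels was therefore not tested. The Hox mean differed by -4.54 points without overlap (exact permutation p = 0.1, two-sided, the smallest possible, 0.286 adjusted), and by -4.00 points without MEF 5. By cluster male iPSC minus MEF was -9.80 points in HoxA and -4.89 in HoxD, without overlap, and -2.26 in HoxB and -0.637 in HoxC, with overlap (exact permutation p adjusted over 20 tests = 0.327, 0.327, 0.545 and 0.778). The quasi-binomial model called 16 Hox tiles lower in male iPSCs (13.4%), against 21.3% of all tested tiles, and 3 higher (2.52%), against 5.27%. By effective reads 17 were lower, 14 of them among the 16, and 2 higher, both among the 3, against 20.2% and 3.52% of all tiles. All male iPSC libraries lay below both MEF libraries in 50 Hox tiles (42.0%), against 42.6% of all tested tiles, and above them in 16 (13.4%), against 12.7%, so these shares were near those of the genome. The lower count was 8 without MEF 5 (against 9.79% of all tiles), 8 without male iPSC 4 (against 20.5%) and 10 of 79 tiles on CpGs read in each library (against 20.2%).

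HoxA held 7 of the 16 lower tiles, which is 21.2% of its tiles and near the share of all tested tiles, and HoxB, HoxC and HoxD had 6.25%, 10.7% and 15.4%. HoxA tile 32 (chr6:52120035-52120627, 25 CpGs, 29 to 1692 reads) was methylated at 80.0% and 48.7% in MEF 4 and 5, at 12.3%, 2.99% and 8.57% in male iPSC 1, 2 and 4, and at 2.94% to 32.4% in the female iPSCs. Male iPSC minus MEF was -56.4 points (adjusted p = 0.00171, quasi-binomial, 0.000856 by effective reads) and -72.0 points without MEF 5, the largest difference of the Hox tiles in this comparison. The SSEA1 positive library had 13.8% (Wilson 95% interval 5.50% to 30.6%) and the SSEA1 negative library 17.5% (Wilson 95% interval 10.7% to 27.3%), so both lay within the range of the iPSCs.

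HoxA tile 24 (chr6:52152543-52152990, 16 CpGs, 30 to 902 reads) lies 1596 bases to the group 1 side of the matched start of Hoxa5, a gene of the thorax and lung. MEF 4 and 5 had 65.2% and 50.3%, male iPSC 1, 2 and 4 had 17.8%, 12.96% and 7.21%, and male iPSC minus MEF was -45.1 points (adjusted p = 0.000189, quasi-binomial) and -52.5 points without MEF 5. Here the SSEA1 positive and negative libraries had 44.0% and 48.5%, above all 9 iPSC libraries.

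The other lower HoxA tiles with large differences were tile 21 (-51.1 points, MEFs at 86.4% and 52.3% and male iPSCs at 8.33% to 25.0%), tile 1 (-33.4 points, 50% and 35.3% against 8.14% to 11.2%), tile 29 (-27.8 points, 39.4% and 20.3% against 1.46% to 2.72%) and tile 26 (-26.6 points, 27.7% and 34.4% against 3.12% to 5.57%). Tile 1 lies 13152 bases beyond Hoxa13, outside the row of matched genes. In each of these tiles both MEF libraries lay above all 3 male iPSC libraries. On CpGs read in each library the difference was -46.0 points in tile 24, -28.7 in tile 29 and -27.9 in tile 26. Tiles 1 and 21, like tile 32, had too few such CpGs or reads to be tested. HoxA tiles 1, 21, 24, 29 and 32 kept the call with each of the 11 libraries left out, and tile 26 lost it without MEF 5.

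Of the HoxD tiles called lower, tiles 12 and 14 had the largest differences, and both were over 2 times smaller without MEF 5. HoxD tile 12 (chr2:74535024-74535999, 34 CpGs) holds the start of Hoxd9, a group 9 gene of the limb and lower spine, and had 10.7% and 62.9% in MEF 4 and 5 and 10.53%, 5.45% and 7.43% in male iPSC 1, 2 and 4. Male iPSC minus MEF was -29.0 points (adjusted p = 0.0289, quasi-binomial) and -2.91 points without MEF 5, and on CpGs read in each library it was -20.9 points (adjusted p = 0.0832). In the promoter stretch of Hoxd9 itself no library with at least 10 reads was above 4.44%, and MEF 5 had no read there. HoxD tile 14, 2185 bases to the group 1 side of the Hoxd9 start, had 30.4% and 60.8% in MEF 4 and 5, 19.7%, 22.2% and 14.6% in male iPSC 1, 2 and 4 and 73.0% and 82.4% in the SSEA1 positive and negative libraries, the highest of the 13. Its difference was -26.8 points (adjusted p = 0.0176, quasi-binomial) and -11.6 points without MEF 5. By limma neither tile was called (adjusted p = 0.0519 for each). HoxD tile 18 had the largest range of group means and the largest lower difference in HoxD (-39.1 points), with 66.7% and 50% in MEF 4 and 5 and 10.3% to 29.5% in male iPSCs, and was called by effective reads and limma only.

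The 3 tiles higher in male iPSCs were HoxC tile 6 (37.6 points, adjusted p = 3.45e-06, quasi-binomial), HoxD tile 16 at Hoxd4 (33.0 points, adjusted p = 0.0085) and HoxA tile 30 (14.6 points, adjusted p = 0.0466, but 0.204 by effective reads and 0.288 by limma). HoxA tile 30 kept this call in 3 of the 11 runs with 1 library left out, and was not called without MEF 5 (15.2 points). On the 4 CpGs of HoxA tile 30 read in each library the difference was 33.0 points (adjusted p = 0.0077). HoxC tile 6 held with each of the 11 libraries left out. HoxD tile 16 was not called without MEF 5 (23.9 points). HoxC tile 10 had the largest range of group means in HoxC, with 2.86% and 7.58% in MEF 4 and 5 and 14.2% to 29.6% in male iPSCs, and was called by limma only.

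The SSEA1 libraries, 1 each and without a test, lay on average between MEFs and male iPSCs at the lower tiles. Over the 16 lower tiles the mean level was 33.8% in MEFs, 21.5% and 25.9% in the SSEA1 positive and negative libraries and 6.59% in male iPSCs. These tiles were chosen for low male iPSC and high MEF levels, so this order is a description that the choice favours. In 13 of the 16 both SSEA1 libraries lay above all 3 male iPSC libraries (81.2%), against 92.7% of all tiles called lower, 37.0% of the 119 Hox tiles and 39.9% of all tested tiles. HoxC tile 6 was at 8.97% (Wilson 95% interval 7.03% to 11.4%) in the SSEA1 positive and 12.3% (Wilson 95% interval 9.65% to 15.5%) in the SSEA1 negative library, below both MEF libraries. At Hoxd4, HoxD tile 16 was at 62.1% (Wilson 95% interval 49.2% to 73.4%) and 46.8% (Wilson 95% interval 36.2% to 57.7%). These intervals cover counting error only, since RRBS reads of a few fragments are not independent molecules.

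**Figure D4:**
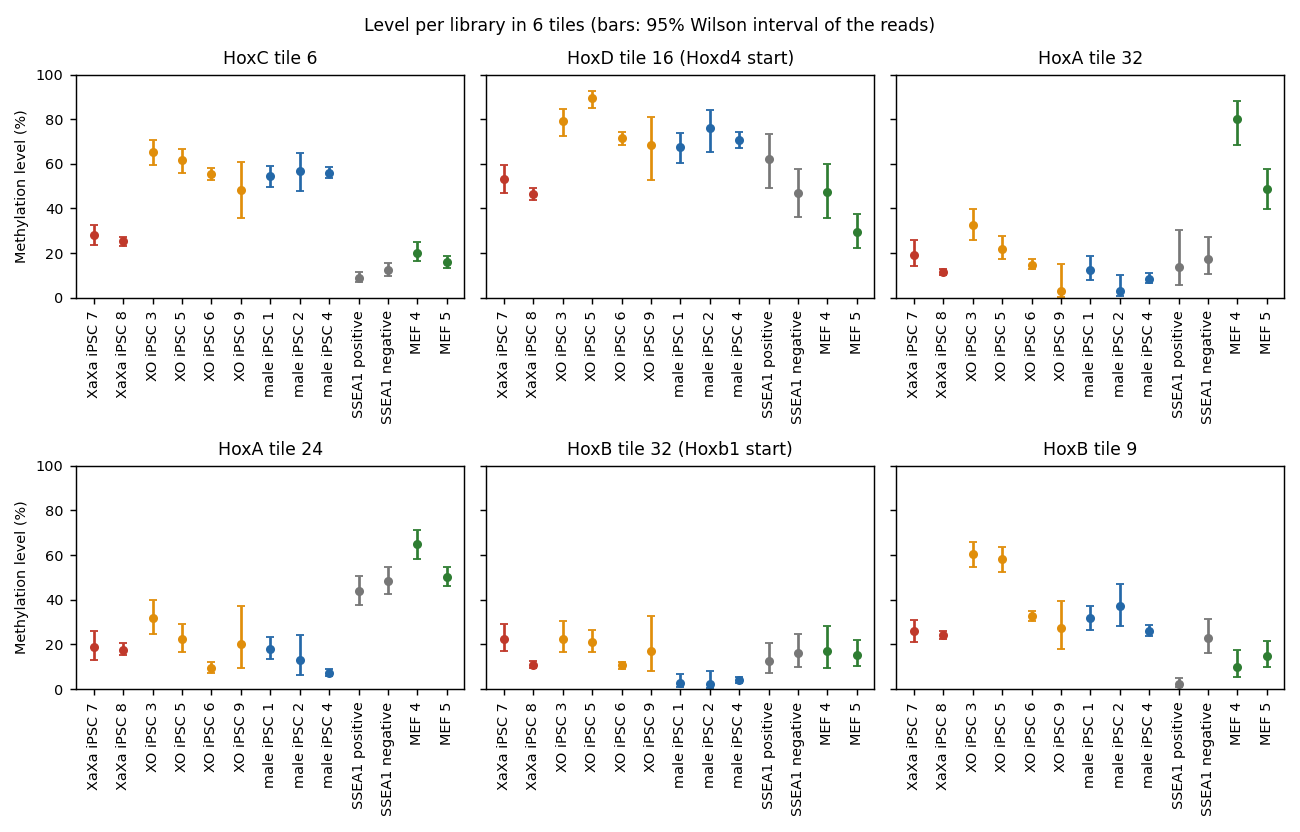
Methylation level in percent (vertical axis) of 6 Hox tiles in each of the 13 libraries (points, coloured by group), with 95% Wilson intervals of the reads as bars. In HoxC tile 6 the XaXa points (28.0% and 25.3%) lie between the other iPSCs and the MEFs, in HoxA tiles 24 and 32 the MEF points are the highest, and in HoxB tile 32 the male iPSC points are the lowest.

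Over all 9 iPSC libraries against the 2 MEF libraries, the Hox mean differed by -1.25 points (exact permutation p = 0.745, two-sided, smallest possible 0.0182). The model with 1 mean for iPSCs and 1 for MEFs called 9 Hox tiles lower in iPSCs (7.56%), against 10.3% of all tested tiles. All 9 were also called for male iPSCs against the same MEFs, and 5 lie in HoxA. It called 0 higher (2 at an unadjusted p under 0.05), against 0.193%, while effective reads called 10 lower and 2 higher, against 17.2% and 1.19%, and limma 11 lower and 5 higher, against 24.9% and 2.21%. All iPSC libraries lay below both MEF libraries in 12 Hox tiles (10.1%), against 32.9% of all tested tiles, and above them in 9 (7.56%), against 2.39%. HoxA tiles 32, 24, 1, 26 and 29 differed by -50.2, -40.2, -28.9, -23.5 and -23.0 points. Of the others, HoxB tile 28 had 41.7% and 15.4% in MEF 4 and 5 and 1.27% to 10.1% in iPSCs, HoxC tile 9 had 20% and 22.5% and 0% to 3.94%, and HoxD tile 8, 423 bases to the group 13 side of Hoxd11, had 16.3% and 23.9% and 0% to 10%. The call of HoxC tile 9 ended with XO 6 as the only XO library (adjusted p = 0.0992, quasi-binomial), that of HoxA tile 26 on CpGs read in each library (0.0879) and that of HoxB tile 28 at a minimum of 10 reads per tile (0.0533). HoxA tiles 1 and 32, HoxB tile 28, HoxC tile 9 and HoxD tile 8 could not be tested on CpGs read in each library. In the 11 runs with 1 library left out, the call held in 3 for HoxA tile 26, 4 for HoxB tile 28 and 5 for HoxC tile 9. It held in 9 for HoxA tiles 1 and 32, and in 10 for HoxA tiles 24 and 29 and HoxD tile 8. The lower count was 3 without MEF 4 (against 7.53% of all tiles) and 1 without MEF 5 (against 1.95%).

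The gene starts were mixed. A matched start fell in a tested tile for 8 members, and 4 of these tiles were under 10% in every library, those of Hoxa10 and Hoxa11 (limb and urogenital genes) and of Hoxd13 and Hoxd1, with medians over the 13 libraries of 2.75%, 3.08%, 0.813% and 3.23%. The tiles of Hoxd12, Hoxd9 and Hoxb1 had medians of 13.7%, 12.6% and 15.2%, and that of Hoxd4 had 67.4%. Hoxd4 was called in 3 comparisons, Hoxb1 and Hoxd9 in 1 each and the other 5 in none of the 5.

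In the promoter stretch alone (250 bases before to 50 after the start), Hoxd4 was methylated at 49.5% and 40.3% in XaXa 7 and 8, 75.7%, 85.6%, 64.7% and 54.2% in XO 3, 5, 6 and 9, 67.3%, 74.7% and 65.7% in male iPSC 1, 2 and 4, 56.6% and 58.0% in the SSEA1 positive and negative libraries, and 24.2% and 27.7% in MEF 4 and 5. The MEF libraries were the lowest of the 13 and the XaXa libraries the next lowest. At its 4 CpGs pooled reads were methylated at 35.5% to 48.5% in XaXa, 61.9% to 75.5% in XO, 57.8% to 74.7% in male iPSCs and 6.90% to 45.0% in MEFs, lowest in MEFs at the CpG of the start itself (29 reads). The Hoxd12 stretch, the only other with at least 10 reads in each library, had 28.1% and 16.9% in XaXa 7 and 8, 46.1%, 29.2%, 9.73% and 21.2% in XO 3, 5, 6 and 9, 20%, 24.5% and 18.0% in male iPSC 1, 2 and 4 and 10.2% and 24.4% in MEF 4 and 5, and its groups overlapped. Its CpG 170 bases before the start had 38.5%, 43.0% and 45.8% in XaXa, XO and male iPSCs, while the 4 CpGs 37 to 70 bases before the start had 4.35% to 13.2%. Each of these 4 CpGs had 46 to 164 pooled reads per iPSC group and 6 in MEFs. The CpGs 119 to 132 bases before the start had 13 to 18 pooled reads in MEFs and 0 in the iPSC groups. The MEF and iPSC levels of the Hoxd12 stretch thus rest in part on different CpGs.

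In the Hoxa11 stretch the number of reads went with cell type, at 583 to 1344 in the MEF and SSEA1 libraries and 3 to 129 in the iPSC libraries. Levels in most iPSC libraries were above those of its tile, which was under 10% in every library. It had 2.57% and 2.83% in MEF 4 and 5, on 583 and 1344 reads, and 4.13% and 8.47% in the SSEA1 positive and negative libraries. XaXa 7 and 8 had 29.4% and 26.4%, on 17 and 121 reads. XO 3, 5 and 6 had 39.1%, 38.5% and 23.1%, on 23, 39 and 121 reads. Male iPSC 1 and 4 had 52.6% and 4.65%, on 19 and 129 reads. XO 9 and male iPSC 2 had fewer than 10 reads. Whether the same CpGs lie behind these values was not tested.

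Of the 9 matched genes outside tested tiles, Hoxd11 had at most 1.25%, Hoxd10 at most 1.39%, Hoxa13 at most 8.33%, Hoxd3 at most 9.09% and Hoxa6 at most 13.5% in the libraries with at least 10 reads. In the same order there were 11, 8, 11, 3 and 8 such libraries, and none of those for Hoxd3 was a MEF or SSEA1 library. Hoxc4 reached 22.0% in XaXa 7. Hoxa5 had 41.9% and 0% in MEF 4 and 5, on 31 and 21 reads, and 0% to 23.8% in the iPSCs. Hoxb8 and Hoxa3 had fewer than 10 reads in each library. Hoxa2, Hoxa7, Hoxa9, Hoxb4 and Hoxd8 had a sequence but no single match. Hoxa4, Hoxb2, Hoxb3, Hoxb5, Hoxb6, Hoxb7, Hoxb9, Hoxb13, Hoxc5, Hoxc6, Hoxc8, Hoxc9, Hoxc10, Hoxc11, Hoxc12 and Hoxc13 were not matched.

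Of 38 other genes of the pathway (homeobox genes such as Dlx1 and Gbx2, Hox cofactors such as Pbx2 and Meis2, and Polycomb genes such as Ezh2 and Suz12), 26 had a promoter sequence, 21 were matched and 14 had their start in a tested tile. All 14 tiles were under 10% in each of the 13 libraries, with medians of 0% to 3.88%, and 0 were called in any of the 5 comparisons. A tile under 10% in every library cannot pass the minimum difference of 10 points.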

How the data were processed

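Per the submitters' processing notes, the authors aligned the reads with BSMAP to mm9, and the aligner's version and any read filter are not stated there. The deposited tables give, per CpG, total and methylated read counts and their ratio as a fraction; the deposited counts are whole numbers, read as not normalized, and the fraction was not used further. Counts were summed over CpGs in 1 kb tiles, with no cap on depth in the reported tile levels and main calls. The chromosome depths were counted with at most 100 reads per CpG. Library depth was 4784488 to 143148634 CpG reads.

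Each of 40417 tiles was fitted with a quasi-binomial model with 1 mean for each of the 4 replicated groups over 11 libraries (R 4.3.3; dispersion moderated with limma 3.58.1 and held at 1 or more; F test; Benjamini-Hochberg adjustment). iPSCs against MEFs used the same model with 2 means. Tested on simulated data with replicate spread of the size found here, this model called too many unchanged tiles where the deep XaXa 8 and XO 6 libraries entered, so a fit on effective reads, N / (1 + (N - 1) × 0.0278) for N reads, was added after seeing the data, and its counts stand beside the main ones. Mean levels of libraries were compared by exact two-sided permutation tests (Python 3.11.15, scipy 1.17.1). Intervals are Wilson 95% intervals. The SSEA1 libraries, 1 each, were not tested.

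The members and gene lists were chosen with earlier results of these data known. Tiles were named by rule: up to 8 called tiles per comparison and direction by size of difference, the highest and most variable tile of each cluster, tiles with a matched gene start, and, where none was called, those with the 3 smallest p. Alternatives were other read minimums, minimum differences, CpG sets and tile positions, pooled reads, limma on log2((methylated + 1)/(unmethylated + 1)) of the deposited counts, a replicate block for iPSCs against MEFs, and each library left out.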

Additional observations from a re-analysis of the deposited data

Results flagged for a closer look

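Among the 4 XO libraries, XO 3 stood apart from the other 3 in HoxA tile 1 (35.0%, against 12.9% to 15.7%) and in HoxD tile 12, which holds the Hoxd9 start (30.9%, against 12.2% to 15.1%). In both its gap to the next library was above Dixon's 95% critical value for 4 samples. Of 30 such groups of XO values 2 were set apart in this way, and chance sets apart about 1 in 20.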

How the results depend on the processing

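The alternatives changed the counts of called tiles more than the direction of the named tiles, none of which changed sign under any alternative run. HoxC tile 6 kept its 3 calls under limma, effective reads, the restricted XO sets and each left-out library. The cause of the changes below was not tested. Counts given in this section without a share of all tested tiles show only how a count moved between settings. They are not a comparison of the Hox tiles with the genome. With a minimum difference of 5 points the called Hox tiles were 6 higher for XaXa minus male iPSC (5.04%, against 0.2% of all tested tiles). With 20 points the called Hox tiles were 5 lower for XaXa minus XO, 0 higher for XaXa minus male iPSC and 10 lower for male iPSC minus MEF. With reads pooled over tiles the mean differences in points were 0.239 for all iPSC minus MEF over all clusters, -1.02 for XaXa minus male iPSC over HoxC and 1.59 for male iPSC minus MEF over HoxC. With at least 10 reads per tile (165 Hox tiles) the called Hox tiles were 26 lower for XaXa minus XO, 6 lower for XaXa minus male iPSC and 4 higher for XaXa minus male iPSC. These were 15.8%, 3.64% and 2.42% of the Hox tiles, against 69.2%, 64.5% and 0.108% of all tested tiles. With at least 50 reads per tile (42 Hox tiles) the called Hox tiles were 2 lower for XaXa minus XO, 1 lower for XaXa minus male iPSC, 1 higher for XaXa minus male iPSC, 4 lower for male iPSC minus MEF, 1 higher for male iPSC minus MEF and 1 lower for all iPSC minus MEF, and the mean differences in points were 1.30 for all iPSC minus MEF over all clusters, 0.420 for all iPSC minus MEF over HoxA, -2.85 for XaXa minus male iPSC over HoxC and 1.15 for male iPSC minus MEF over HoxC. On CpGs with 10 reads in each library (8 Hox tiles) the called Hox tiles were 1 lower for XaXa minus XO, 1 lower for XaXa minus male iPSC, 1 higher for XaXa minus male iPSC, 0 lower for male iPSC minus MEF, 1 higher for male iPSC minus MEF and 0 lower for all iPSC minus MEF, and the mean differences in points were 3.82 for male iPSC minus MEF over all clusters, 7.03 for all iPSC minus MEF over all clusters, 9.78 for XO minus male iPSC over HoxA, 4.42 for all iPSC minus MEF over HoxA, -14.6 for XaXa minus male iPSC over HoxC, 19.1 for male iPSC minus MEF over HoxC and 16.7 for all iPSC minus MEF over HoxC. With tiles shifted by 500 bases (113 Hox tiles) the called Hox tiles were 6 lower for XaXa minus male iPSC and 1 higher for XaXa minus male iPSC, and the mean differences in points were -1.93 for all iPSC minus MEF over HoxB, 2.63 for male iPSC minus MEF over HoxC and 0.709 for all iPSC minus MEF over HoxD. On CpGs read in each library (79 Hox tiles, added after seeing the data) the called Hox tiles were 10 lower for male iPSC minus MEF and 2 lower for all iPSC minus MEF, and the mean differences in points were 0.955 for all iPSC minus MEF over all clusters, 1.51 for male iPSC minus MEF over HoxC and -0.231 for XaXa minus male iPSC over HoxD. With XO 6 as the only XO library the called Hox tiles were 5 lower for XaXa minus XO, 1 higher for XaXa minus XO and 5 higher for male iPSC minus MEF, and the mean differences in points were -3.63 for all iPSC minus MEF over all clusters, 0.129 for XaXa minus XO over HoxA, -8.48 for all iPSC minus MEF over HoxA, 0.0638 for XaXa minus XO over HoxB, -1.25 for all iPSC minus MEF over HoxB, 0.384 for XaXa minus XO over HoxC, -0.0808 for all iPSC minus MEF over HoxC and -4.23 for all iPSC minus MEF over HoxD. With XO 6 and 9 as the only XO libraries (added after seeing the data) the called Hox tiles were 5 lower for XaXa minus XO, 1 higher for XaXa minus XO and 6 higher for male iPSC minus MEF, and the mean differences in points were -3.46 for all iPSC minus MEF over all clusters, 0.783 for XaXa minus XO over HoxA, -8.49 for all iPSC minus MEF over HoxA, -0.796 for all iPSC minus MEF over HoxB, 0.395 for XaXa minus XO over HoxC, -0.0411 for all iPSC minus MEF over HoxC and -4.04 for all iPSC minus MEF over HoxD. With effective reads (added after seeing the data) the called Hox tiles were 8 lower for XaXa minus XO, 1 higher for XaXa minus male iPSC and 2 higher for all iPSC minus MEF. With limma the called Hox tiles were 3 lower for XaXa minus XO, 1 lower for XaXa minus male iPSC and 5 higher for all iPSC minus MEF. With only the 2 groups compared in the model the called Hox tiles were 5 higher for male iPSC minus MEF. With the replicate block the called Hox tiles were 17 lower for all iPSC minus MEF and 9 higher for all iPSC minus MEF.

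With 1 library left out, the called Hox tiles ranged over 0 to 15 higher for XO minus male iPSC, 0 to 0 higher for XaXa minus XO, 0 to 3 higher for XaXa minus male iPSC, 0 to 3 higher for all iPSC minus MEF, 1 to 4 higher for male iPSC minus MEF, 0 to 0 lower for XO minus male iPSC, 2 to 26 lower for XaXa minus XO, 1 to 3 lower for XaXa minus male iPSC, 1 to 11 lower for all iPSC minus MEF and 8 to 22 lower for male iPSC minus MEF. The mean difference over all clusters ranged over 4.05 to 8.06 points for XO minus male iPSC, -6.28 to -2.28 points for XaXa minus XO, 0.249 to 3.30 points for XaXa minus male iPSC, -2.58 to -0.704 points for all iPSC minus MEF and -5.09 to -4.00 points for male iPSC minus MEF. The mean difference over HoxA ranged over 3.604 to 8.15 points for XO minus male iPSC, -5.57 to -0.926 points for XaXa minus XO, 0.857 to 4.50 points for XaXa minus male iPSC, -7.83 to -4.86 points for all iPSC minus MEF and -11.3 to -8.31 points for male iPSC minus MEF. The mean difference over HoxB ranged over 4.93 to 9.10 points for XO minus male iPSC, -7.06 to -2.89 points for XaXa minus XO, 1.35 to 2.73 points for XaXa minus male iPSC, -0.942 to 3.83 points for all iPSC minus MEF and -4.65 to 0.122 points for male iPSC minus MEF. The mean difference over HoxC ranged over 3.95 to 8.15 points for XO minus male iPSC, -6.91 to -2.70 points for XaXa minus XO, -0.273 to 2.75 points for XaXa minus male iPSC, 1.15 to 2.97 points for all iPSC minus MEF and -1.03 to -0.102 points for male iPSC minus MEF. The mean difference over HoxD ranged over 3.66 to 7.17 points for XO minus male iPSC, -7.19 to -2.78 points for XaXa minus XO, -1.32 to 3.07 points for XaXa minus male iPSC, -3.70 to -0.476 points for all iPSC minus MEF and -6.50 to -3.28 points for male iPSC minus MEF. It changed sign in HoxC for XaXa minus male iPSC (-0.273 points without XaXa iPSC 7), HoxD for XaXa minus male iPSC (-1.32 points without XaXa iPSC 7), HoxB for all iPSC minus MEF (-0.942 points without MEF 4) and HoxB for male iPSC minus MEF (0.122 points without MEF 5). Where 1 library is left of a group, it is assumed to vary like the others. No paired analysis was possible because the groups compared share fewer than 2 replicate numbers, except for all iPSC minus MEF, where male iPSC 4 and MEF 4, and XO 5 and MEF 5, share one. The fit with this replicate block, added after seeing the data, rests on these 4 libraries and called 17 Hox tiles lower and 9 higher. These counts are given without a share of all tested tiles and are not a comparison with the genome. The labels do not say that a number marks a shared source, and the deviations of same-numbered libraries from their group means correlated at 0.0353 (XO 5 and MEF 5) and 0.0225 (male iPSC 4 and MEF 4) over all tested tiles. Depth limits the shallow libraries most: XO 9 had a median of 42 reads per Hox tile, against 1794 in XaXa 8, and 119 of the 393 Hox tiles with a read could be tested.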
